A study of Mus musculus with 14 samples.

Results

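Transcripts enriched in astrocytes were followed in RNA from small tubes of labelled mouse neurons. The set was given by gene name and holds 9 genes, Glul, Aldoc, Slc1a2, Slc1a3, Aqp4, Gja1, Slc4a4, Gjb6 and Gfap, of the 55401 genes in the count table. All 9 were found, each on 1 row, and all 9 were among the 14599 genes tested. Each of the 14 libraries came from 1 tube of 4 to 5 EGFP-positive PiC neurons of wild-type C57BL/6 mice, drawn into a micropipette and amplified with SMART-Seq2, which reads polyadenylated RNA along its length. All groups had received AAVretro-EGFP, a virus taken up at axon endings and carried back to the cell body, in PrL (PiC-PrL neurons) or in MeA (PiC-MeA neurons). The abbreviations PiC, PrL and MeA are those of the labels. PiC-PrL neurons gave 4 libraries from females and 4 from males, and PiC-MeA neurons gave 3 from each sex. The age of the mice is not known from the sources here, and nothing says that tubes came from separate animals, so p-values measure only the spread between these tubes.

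Astrocytes are the glial cells that surround synapses and blood vessels. They take up released glutamate through the transporters encoded by Slc1a2 and Slc1a3, turn it into glutamine with the synthetase encoded by Glul and return the glutamine to neurons. They also move water through the channel Aqp4 and bicarbonate through Slc4a4, are joined to each other by gap junctions of Gja1 and Gjb6 (connexins 43 and 30), carry the Gfap filament and use the aldolase Aldoc in glycolysis. These transcripts are enriched in astrocytes and not exclusive to them: Aldoc RNA is known in Purkinje neurons and Slc1a2 RNA in some hippocampal neurons. In a tube of several cells, fewer cells of a type and less RNA per cell cannot be told apart.

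The tubes carried the RNA of neurons as labelled. Of 16 pan-neuronal genes, 14 had at least 10 counts in every library, and the remaining pair, Tubb3 and Nefl, was listed at 0 in all 14. Since neurons use both genes, a 0 in every library is given here only as the listed value and says nothing about which cells a tube held; why such genes are at 0 was not tested. The summed pan-neuronal level ran from 10458 to 26446 CPM, the usual unit of counts relative to library size, here after TMM scaling. Total counts ran from 6132985 to 15392217 per library. The 3 male PiC-MeA libraries stood apart: 18964 to 20014 genes had a count there and 12479 to 14908 in the remaining 11, and of 1410 olfactory receptor (Olfr) genes 232 to 303 had a count there and 44 to 84 elsewhere. Results that rest on these libraries are named below with the values that move with them.

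Every tube held some astrocyte-enriched RNA, but not the same genes. Glul, Aldoc, Slc1a2 and Slc1a3 had at least 100 counts in all 14 libraries. Gja1 reached 10 counts in 13 libraries, Gfap in 12, Slc4a4 in 10, Aqp4 in 8 and Gjb6 in 6. The male PiC-MeA tubes, which also had the most detected genes, held all 9 genes at 100 counts or more. PiC-PrL tubes held 5 to 8 of them at that level and female PiC-MeA tubes 5 to 6. The summed level of the 9 was 2208 ± 284 CPM (SD, n = 4) in female PiC-PrL, 3901 ± 2168 CPM (n = 4) in male PiC-PrL, 798 ± 86.9 CPM (n = 3) in female PiC-MeA and 1925 ± 172 CPM (n = 3) in male PiC-MeA tubes. Female PiC-MeA tubes, at 707 to 880.3 CPM, lay below all other tubes, which held 1732 CPM or more. Aldoc alone made up 20.7 to 64.0% of the sum in a tube. Summed over only Aqp4, Gja1, Slc4a4, Gjb6 and Gfap, female PiC-MeA tubes held 34.2 to 59.3 CPM and overlapped female PiC-PrL tubes, at 50.9 to 359 CPM. By that sum male PiC-PrL tubes held 90.1 to 804 CPM and male PiC-MeA tubes 151 to 380 CPM.

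**Figure D1:**
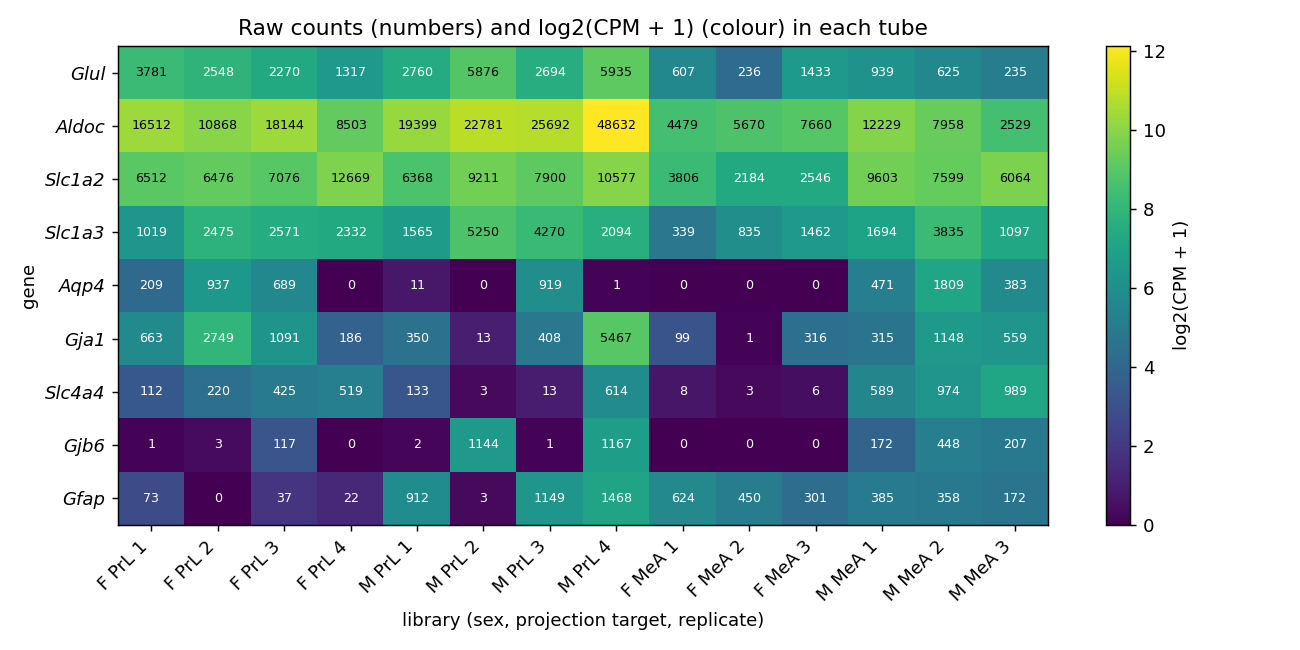
Each row is 1 of the 9 genes and each column 1 library; numbers are raw counts and colour is log2(CPM + 1), with F for female and M for male. Glul, Aldoc, Slc1a2 and Slc1a3 are filled in every column, while Aqp4 and Gjb6 are at 0 in all 3 female PiC-MeA columns and switch between high and near 0 among PiC-PrL columns.

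Levels between genes were compared per length, as the mean CPM over 14 libraries per kilobase (kb) of merged exons. Aldoc stood highest at 368 CPM per kb, followed by Glul at 53.6, Slc1a2 at 43.7 and Slc1a3 at 20.5 CPM per kb. The other 5 lay lower, at 8.19 for Gja1, 7.97 for Gfap, 7.70 for Gjb6, 5.18 for Aqp4 and 2.82 CPM per kb for Slc4a4. Snap25, a synaptic vesicle fusion protein of neurons, stood at 1375 CPM per kb in the same libraries.

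Slc1a2 encodes GLT-1, the main glutamate transporter of astrocytes (ENSMUSG00000005089.15; chromosome 2, 102658659 to 102790784, + strand; positions here are GRCm38 from GENCODE M21). Its CPM values were 523, 595, 504 and 887 in female PiC-PrL replicates 1 to 4 and 407, 749, 548 and 975 in male PiC-PrL replicates 1 to 4. They were 309, 165 and 163 in female PiC-MeA replicates 1 to 3 and 749.8, 609 and 858 in male PiC-MeA replicates 1 to 3. The female PiC-MeA tubes were the low ones: none reached the lowest tube of any other group, and the other 3 groups overlapped. The order of the group means was male PiC-MeA, male PiC-PrL, female PiC-PrL and then female PiC-MeA.

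Slc1a3 encodes GLAST, the second glutamate transporter of astrocytes (ENSMUSG00000005360.14; chromosome 15, 8634124 to 8710764, - strand). It stood at 81.8, 228, 183 and 163 CPM in female PiC-PrL replicates 1 to 4 and at 100.1, 427, 296 and 193 CPM in male PiC-PrL replicates 1 to 4. The female PiC-MeA replicates had 27.5, 63.0 and 93.8 CPM and the male PiC-MeA replicates 132, 307 and 155 CPM. The 2 PiC-MeA groups did not overlap, while female PiC-MeA replicate 3 lay above female PiC-PrL replicate 1. Between neighbours in the order of means (male PiC-PrL, male PiC-MeA, female PiC-PrL, female PiC-MeA) the ranges overlapped in each case.

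Glul encodes glutamine synthetase, which uses the glutamate that astrocytes take up (ENSMUSG00000026473.16; chromosome 1, 153899944 to 153909723, + strand). Its level was 304, 234, 162 and 92.2 CPM in female PiC-PrL replicates 1 to 4 and 177, 478, 187 and 547 CPM in male PiC-PrL replicates 1 to 4. In PiC-MeA tubes it was 49.2, 17.8 and 91.9 CPM for females and 73.3, 50.1 and 33.3 CPM for males. All 6 PiC-MeA tubes lay below all 8 PiC-PrL tubes, by a narrow margin between 91.9 and 92.2 CPM that depends on the scaling: per total counts, with no TMM factor, female PiC-MeA replicate 3 had 103.7 and female PiC-PrL replicate 4 had 85.6 CPM. Its exons share 116 bases with Teddm2 on the other strand, which had at most 243 counts in a library, and the labels do not say whether counting used strand.

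Aldoc encodes the brain form of aldolase, an enzyme of glycolysis (ENSMUSG00000017390.15; chromosome 11, 78322968 to 78327781, + strand). It reached 1326, 999, 1291 and 595 CPM in female PiC-PrL replicates 1 to 4 and 1241, 1853, 1782 and 4484 CPM in male PiC-PrL replicates 1 to 4. Female PiC-MeA tubes had 363, 428 and 491 CPM and male PiC-MeA tubes 955, 638 and 358 CPM. Within each sex the PiC-MeA tubes lay below the PiC-PrL tubes, in females only after scaling: per total counts, female PiC-MeA replicate 3 had 554 and female PiC-PrL replicate 4 had 552 CPM. Male PiC-PrL replicate 4 stood far above all others. The order of means was male PiC-PrL, female PiC-PrL, male PiC-MeA and female PiC-MeA, with overlap between each pair of neighbours.

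Glul and Aldoc were the most alike of the 36 pairs in the set, with a Spearman correlation of 0.912 over the 14 libraries, which share differences in depth and group. Within the 8 PiC-PrL libraries it was 0.786 and within the 6 PiC-MeA libraries 0.657. Pearson's r of their CPM was 0.867, and 0.777 without the 2 libraries farthest from the median of Glul. Within PiC-PrL it was 0.811 and, without the 2 farthest of those libraries, 0.426, so there it rests in part on them. Over all 36 pairs the median Spearman correlation was 0.349, and 29 were positive. The pair of Aqp4 and Gja1 came next at 0.775, but Pearson's r of the same values was 0.113. Gfap had no value above 0.046 with any other gene of the set.

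The proximal promoters of these genes were read from RefSeq windows of GRCm38.p6 that run from 250 bases before to 50 after each start site. There were 10 windows for 8 of the 9 genes, with none for Aqp4. Glul and Aldoc, the most alike pair, each hold a GC box (GGGCGG on either strand) close to the start site, and Slc4a4 and Slc1a3 hold one farther away. The stretches of 30 bases around it are given 5′ to 3′ on the gene's strand, with the GC box in capitals.
Glul: caaggcgactggGGGCGGgcacaagctgtc
Aldoc: gtcctggggagaGGGCGGgaccaggacggg
Slc4a4: tcccagcccacgCCGCCCgggtccccgcgc
Slc1a3: tacaagttgagaGGGCGGcagtaagcattc
The stretches lie at chr1:153899884-153899913 (+), chr11:78323044-78323073 (+), chr5:88887133-88887162 (+) and chr15:8710935-8710964 (-). The box begins 33 bases before the start site in Glul, 17 in Aldoc, 115 in Slc4a4 and 145 in Slc1a3. Thus 4 of the 10 windows held a GC box, against 35.7% of all 32851 windows. TATAAA was found in 1 window, that of Slc1a3 (13.6% of all windows), and the short NFI site TTGGC in 5 (46.7%). The full NFI site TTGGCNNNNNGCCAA, which contains the short one, and the cyclic AMP element TGACGTCA were in none (0.0365% and 1.79% of all windows). Both strands were searched, and a match says only that the letters are there.

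Aqp4 encodes the water channel of astrocyte endfeet (ENSMUSG00000024411.11; chromosome 18, 15389496 to 15410982, - strand). Its counts in female PiC-PrL replicates 1 to 4 were 209, 937, 689 and 0, or 16.8, 86.1, 49.0 and 0 CPM. In male PiC-PrL replicates 1 to 4 they were 11, 0, 919 and 1, or 0.704, 0, 63.7 and 0.0922 CPM. All 3 female PiC-MeA tubes had 0 counts, which allows a level of up to 0.192 to 0.243 CPM at 3 counts per library. The male PiC-MeA tubes had 471, 1809 and 383 counts, or 36.8, 145 and 54.2 CPM. Male PiC-MeA tubes thus had the highest mean, with values that overlapped those of both PiC-PrL groups. PiC-PrL tubes were either high or near 0, and female PiC-MeA tubes were listed at 0.

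Slc4a4 encodes the sodium bicarbonate cotransporter NBCe1 (ENSMUSG00000060961.16; chromosome 5, 88886818 to 89239653, + strand). It stood at 9.0, 20.2, 30.3 and 36.3 CPM in female PiC-PrL replicates 1 to 4 and at 8.51, 0.244, 0.902 and 56.6 CPM in male PiC-PrL replicates 1 to 4. The female PiC-MeA replicates had 0.649, 0.226 and 0.385 CPM, from 3 to 8 counts, and the male PiC-MeA replicates 46.0, 78.0 and 140.0 CPM. Female PiC-MeA and female PiC-PrL tubes did not overlap, nor did female and male PiC-MeA tubes. With a span of 352836 bases it is the longest gene of the set.

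Gja1 encodes connexin 43 (ENSMUSG00000050953.10; chromosome 10, 56377330 to 56402513, + strand). Its level was 53.2, 253, 77.7 and 13 CPM in female PiC-PrL replicates 1 to 4 and 22.4, 1.06, 28.3 and 504 CPM in male PiC-PrL replicates 1 to 4. In female PiC-MeA replicates it was 8.03, 0.0754 and 20.3 CPM and in male PiC-MeA replicates 24.6, 92.0 and 79.1 CPM. Male PiC-PrL replicate 4 alone set the high mean of its group, and the PiC-MeA groups did not overlap.

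Gjb6 encodes connexin 30, which shares astrocyte gap junctions with connexin 43 (ENSMUSG00000040055.9; chromosome 14, 57123303 to 57133611, - strand). Its counts were 1, 3, 117 and 0 in female PiC-PrL replicates 1 to 4 and 2, 1144, 1 and 1167 in male PiC-PrL replicates 1 to 4. In CPM the high tubes were female PiC-PrL replicate 3 at 8.33 and male PiC-PrL replicates 2 and 4 at 93.0 and 108. Female PiC-MeA tubes had 0 counts, and male PiC-MeA tubes had 172, 448 and 207 counts, or 13.4, 35.9 and 29.3 CPM. In PiC-PrL tubes the high values of Gjb6 and Aqp4 met only in female replicate 3. The Spearman correlation of the 2 genes was -0.12 over the 8 PiC-PrL libraries and 1.0 over the 6 PiC-MeA libraries, where both are at 0 in all 3 female tubes.

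Gfap encodes the intermediate filament of astrocytes (ENSMUSG00000020932.14; chromosome 11, 102887336 to 102900912, - strand). It stood at 5.86, 0, 2.63 and 1.54 CPM in female PiC-PrL replicates 1 to 4 and at 58.3, 0.244, 79.7 and 135 CPM in male PiC-PrL replicates 1 to 4. PiC-MeA tubes had 50.6, 33.9 and 19.3 CPM in females and 30.1, 28.7 and 24.3 CPM in males. Its order was unlike that of the other 8 genes: female PiC-PrL tubes were the low group, and female PiC-MeA tubes, low or at 0 for Aqp4, Gjb6 and Slc4a4, all held at least 301 counts of Gfap.

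**Figure D2:**
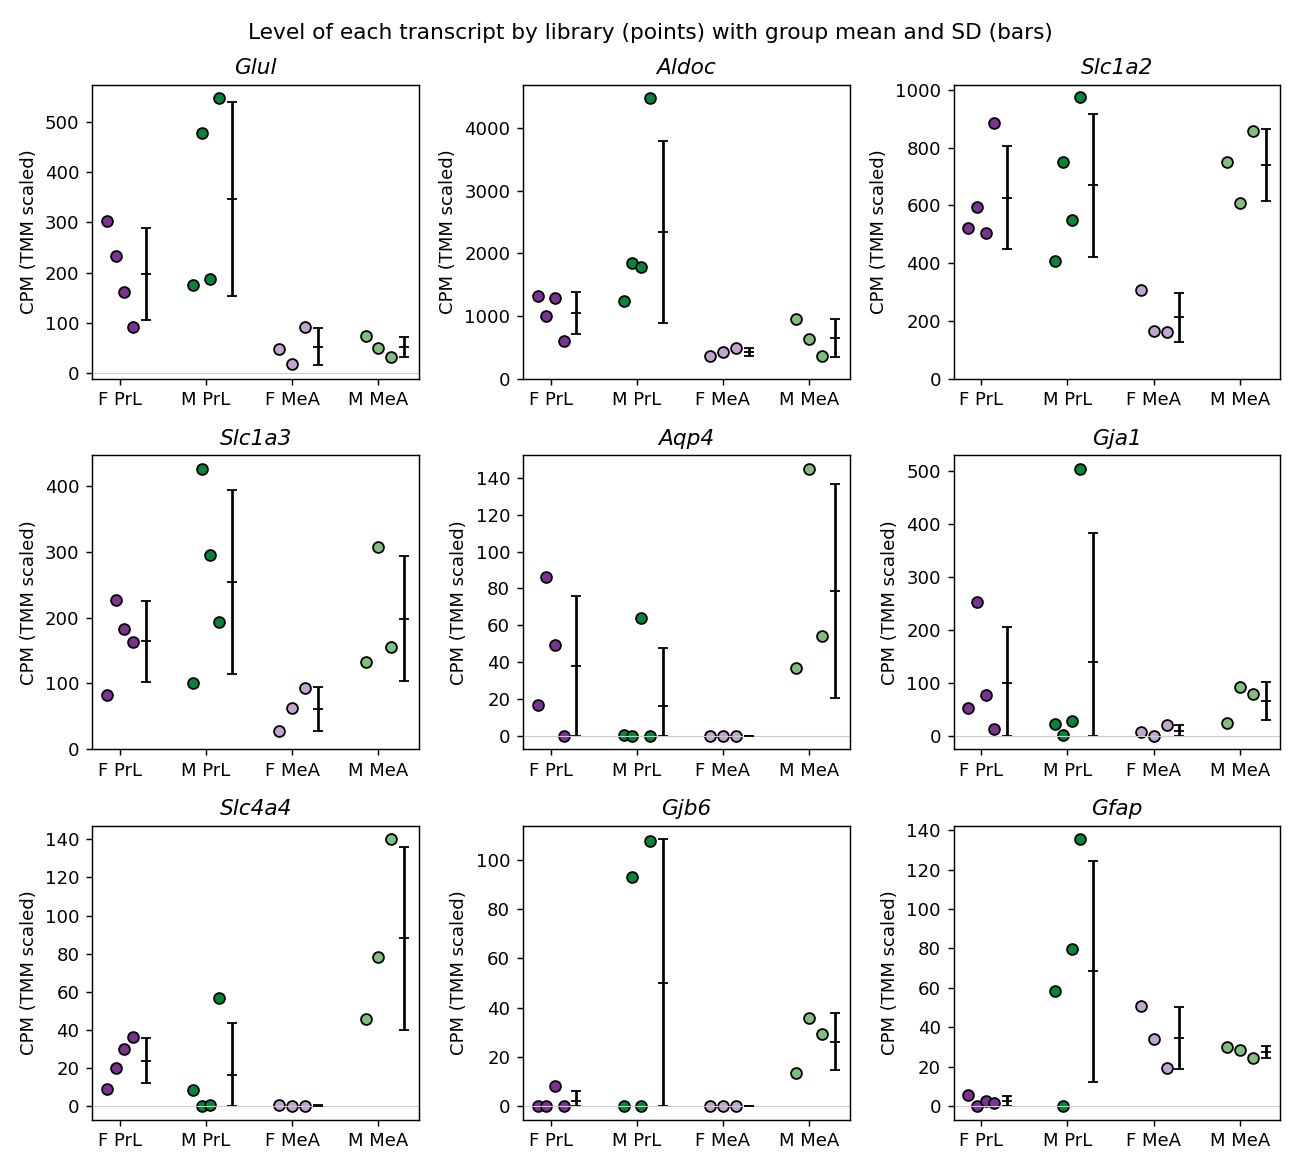
CPM of each gene (y axis, linear, own scale per panel) in the 4 groups (x axis, F female, M male); points are libraries in replicate order, and bars give the group mean with 1 SD, the lower arm ending at 0. Female PiC-MeA points are the lowest group for Slc1a2, at 163 to 309 CPM, and are at 0 for Aqp4 and Gjb6, but not for Gfap.

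Sex was compared first within PiC-PrL neurons, male minus female, and none of the 9 genes reached an adjusted p (Benjamini-Hochberg) under 0.05 in the quasi-likelihood test of edgeR. Gfap was at 68.4 ± 55.8 CPM in 4 male and 2.51 ± 2.48 CPM in 4 female tubes (log2 4.76 ± 1.60 SE, edgeR adjusted p = 0.283). Aldoc was at 2340 ± 1455 against 1053 ± 339 CPM (log2 1.15 ± 0.39, edgeR adjusted p = 0.283). Gjb6 was at 50.2 ± 58.2 against 2.17 ± 4.11 CPM (log2 4.52 ± 2.32, edgeR adjusted p = 0.399). For none of the 9 genes were the male and female PiC-PrL tubes apart (1.49% of all tested genes were apart and higher in males, 2.02% lower), and male replicate 2 had 3 counts of Gfap.

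Fitted changes were positive for 7 of the 9 genes and negative for 2, beside 48.7% and 50.6% of all tested genes. The 6 not yet named gave log2 values between -1.23 ± 1.97 (Aqp4) and 0.81 ± 0.56 (Glul). Of all 14599 genes, edgeR called 0 in this comparison (0%), while 811 were higher (5.56%) and 1282 lower (8.78%) at an unadjusted p under 0.05. Of the 9 members 2 were higher, Gfap and Aldoc, and none lower at that threshold. The median log2 of the 9 was 0.63, beside -0.03 for all tested genes. DESeq2 called 1 member, Gfap, among 1017 genes (7.59%), and limma voom called none among 8 (0.0548%). Without a filter on low counts edgeR called none of the 9 among 38 genes (0.136%). Microglia sums were 385 to 1030 CPM in male and 228 to 495 CPM in female PiC-PrL tubes, with 10 of 12 genes positive (median log2 0.82) and 1 higher and none lower at an unadjusted p under 0.05. Male replicates 2 and 4, at 949 and 1030 CPM of microglia genes, also had the highest sums of the 9 members, 3602 and 7003 CPM. Their pan-neuronal sums, 24499 and 26446 CPM, were the highest too, while their oligodendrocyte sums were 2645 and 446 CPM. Their TMM factors, 0.861 and 0.743, were the lowest of the male PiC-PrL tubes, and a lower factor raises every CPM of a tube. Per total counts, with no TMM factor, the summed level of the 9 was 3327 ± 1330 CPM in male and 2080 ± 394 CPM in female PiC-PrL tubes. What part microglia or neuronal RNA has in the members' result was not tested. Without male PiC-PrL replicate 4 the log2 of Gja1 turned from 0.49 to -2.52.

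In PiC-MeA neurons 6 of the 9 genes were higher in every male than in any female tube: Slc1a2, Slc1a3, Aqp4, Gja1, Slc4a4 and Gjb6. Of all tested genes 17.4% were apart in that direction and 8.95% in the other. No member passed by edgeR, which called 0 of 14599 genes (0%). The same 3 male tubes held the larger number of detected genes and Olfr genes given above, so sex and these library measures cannot be told apart.

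Slc1a2 was at 739 ± 125 CPM in 3 male and 212 ± 83.5 CPM in 3 female PiC-MeA tubes (log2 1.82 ± 0.39, edgeR adjusted p = 0.298). Slc1a3 was at 198 ± 95.1 against 61.4 ± 33.2 CPM (log2 1.71 ± 0.62, edgeR adjusted p = 0.302), and Slc4a4 at 88.0 ± 47.8 against 0.420 ± 0.213 CPM (log2 7.70 ± 2.03, edgeR adjusted p = 0.298). For both glutamate transporters the male PiC-MeA values overlapped those of both PiC-PrL groups. Mean Aqp4 was at least 356-fold higher in males than the level that 3 counts per female library would give, and Gjb6 at least 119-fold higher. The same male tubes held up to 17.6, 18.3 and 78.0 CPM of a single Olfr gene in replicates 1 to 3, beside 36.8, 145 and 54.2 CPM of Aqp4. Summed over all Olfr genes they held 463, 863 and 1220 CPM, and the female PiC-MeA tubes 26.5 to 69.8 CPM.

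The 3 genes without a gap between the sexes in PiC-MeA tubes were Glul, Aldoc and Gfap. Glul had a mean of 52.2 ± 20.1 CPM in male tubes and 53.0 ± 37.2 CPM in female tubes (log2 -0.0045 ± 0.64). Aldoc stood at 650.1 ± 299 against 427 ± 64.1 CPM (log2 0.62 ± 0.44) and Gfap at 27.7 ± 2.98 against 34.6 ± 15.7 CPM (log2 -0.30 ± 1.58). At an unadjusted p under 0.05 there were 5 members higher and none lower, against 10.3% and 2.05% of all tested genes. Fitted changes were positive for 7 members and negative for 2, beside 53.6% and 46.4% of all tested genes. The median log2 was 1.82 for the members and 0.12 for all tested genes. DESeq2 and limma voom each called Slc1a2, Aqp4, Slc4a4 and Gjb6, among 5.68% and 12.1% of genes, and edgeR without a filter called Aqp4 (0.161%).

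Between the projections in females, PiC-MeA minus PiC-PrL, 8 of the 9 genes had a negative and 1 a positive fitted change, beside 51.8% and 47.5% of all tested genes. Slc1a2 (212 ± 83.5 against 627 ± 177 CPM, log2 -1.56 ± 0.37), Glul (53.0 ± 37.2 against 198 ± 91.3 CPM, log2 -1.90 ± 0.64), Aldoc (427 ± 64.1 against 1053 ± 339 CPM, log2 -1.30 ± 0.43) and Slc4a4 (0.420 ± 0.213 against 23.9 ± 12 CPM, log2 -5.80 ± 1.84) were lower in every PiC-MeA tube; for Glul and Aldoc this did not hold per total counts. Gfap was higher in every PiC-MeA tube, at 34.6 ± 15.7 against 2.51 ± 2.48 CPM (log2 3.78 ± 1.57). None passed by edgeR: the adjusted p was 0.37 for Slc1a2, 0.403 for Glul, Aldoc and Slc4a4 and 0.41 for Gfap. The 3 female PiC-MeA tubes are also the lower group of the sex comparison, so these are not independent of it.

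In females the groups were apart for 4 members in the lower direction, beside 3.97% of all tested genes, and for 1 in the higher direction, beside 4.46%. With DESeq2 size factors the count in the lower direction was 3 (3.87% of all tested genes), without Glul, and per total counts it was 2 (2.88%), Slc1a2 and Slc4a4. Slc1a3 was at 61.4 ± 33.2 against 164 ± 61.0 CPM and Gja1 at 9.46 ± 10.2 against 99.2 ± 106 CPM, both with overlap. Mean Aqp4 in female PiC-PrL tubes was at least 172-fold above the level of 3 counts per PiC-MeA library, although 1 of these PiC-PrL tubes had 0 counts. At an unadjusted p under 0.05, 7 members were lower and 1 higher, against 5.31% and 5.78% of all tested genes, of which edgeR called 0 (0%). Inhibitory neuron genes were also low in these PiC-MeA tubes, with sums of 70.1 to 298 CPM against 434 to 5887 CPM in female PiC-PrL tubes; of 12 tested, 10 were negative, with 4 lower and none higher at an unadjusted p under 0.05 (median log2 -2.23). Their part in the members' result was not tested. The median log2 was -1.90 for the members and -0.06 for all tested genes. DESeq2 called Slc1a2, Aqp4, Slc4a4 and Gjb6 among 628 genes (4.59%) and limma voom none of the 9 among 31 (0.212%), and edgeR without a filter called Aqp4 (0.165%).

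Between the projections in males, Glul and Aldoc were lower in every PiC-MeA than in any PiC-PrL tube, and no other member was apart; per total counts Slc4a4 was apart too, and higher. Glul was at 52.2 ± 20.1 CPM in 3 PiC-MeA and 347 ± 193 CPM in 4 PiC-PrL tubes (log2 -2.72 ± 0.66, edgeR adjusted p = 0.0767). Aldoc was at 650.1 ± 299 against 2340 ± 1455 CPM (log2 -1.83 ± 0.44, edgeR adjusted p = 0.0712). Both missed the threshold of a test that called 88 of 14599 genes (0.603%). This comparison rests on the male PiC-MeA tubes, so projection and their larger number of detected genes and Olfr genes cannot be told apart. Groups were apart in the lower direction for 6.33% of all tested genes and in the higher direction for 19.1%. Pan-neuronal sums were apart as well, at 10458 to 11544 CPM in male PiC-MeA and 16777 to 26446 CPM in male PiC-PrL tubes, with 5 of 14 genes lower and none higher at an unadjusted p under 0.05. Snap25 had a log2 of -1.13 ± 0.26 (edgeR adjusted p = 0.0592) and the aldolase Aldoa one of -1.37 ± 0.40 (edgeR adjusted p = 0.0794). Their part in the members' result was not tested. At an unadjusted p under 0.05 these 2 members were lower and none higher, against 4.89% and 17.3% of all tested genes.

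Both Glul and Aldoc were called when male PiC-PrL replicate 1 was left out, and again when the library left out was female PiC-MeA replicate 3; Aldoc alone was called without male PiC-MeA replicate 1. DESeq2 called both (14.8% of all genes), as did edgeR without a filter (0.57%), and limma voom called both with Slc4a4 (17.9%). With a covariate for how many genes a library detected, which was highest in male PiC-MeA tubes, the log2 was 1.13 ± 2.18 for Aldoc and -2.34 ± 3.55 for Glul, with SEs too wide to tell either from 0. With that covariate edgeR called 0 of all tested genes. Slc1a2 was at 739 ± 125 against 669.9 ± 247 CPM (log2 0.16 ± 0.35) and Slc1a3 at 198 ± 95.1 against 254 ± 140.4 CPM (log2 -0.34 ± 0.57), and for both the tubes of the 2 groups overlapped. Fitted changes were positive for 3 members and negative for 6, beside 53.4% and 46.6% of all tested genes. The median log2 of the 9 was -0.92, beside 0.16 for all tested genes.

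**Figure D3:**
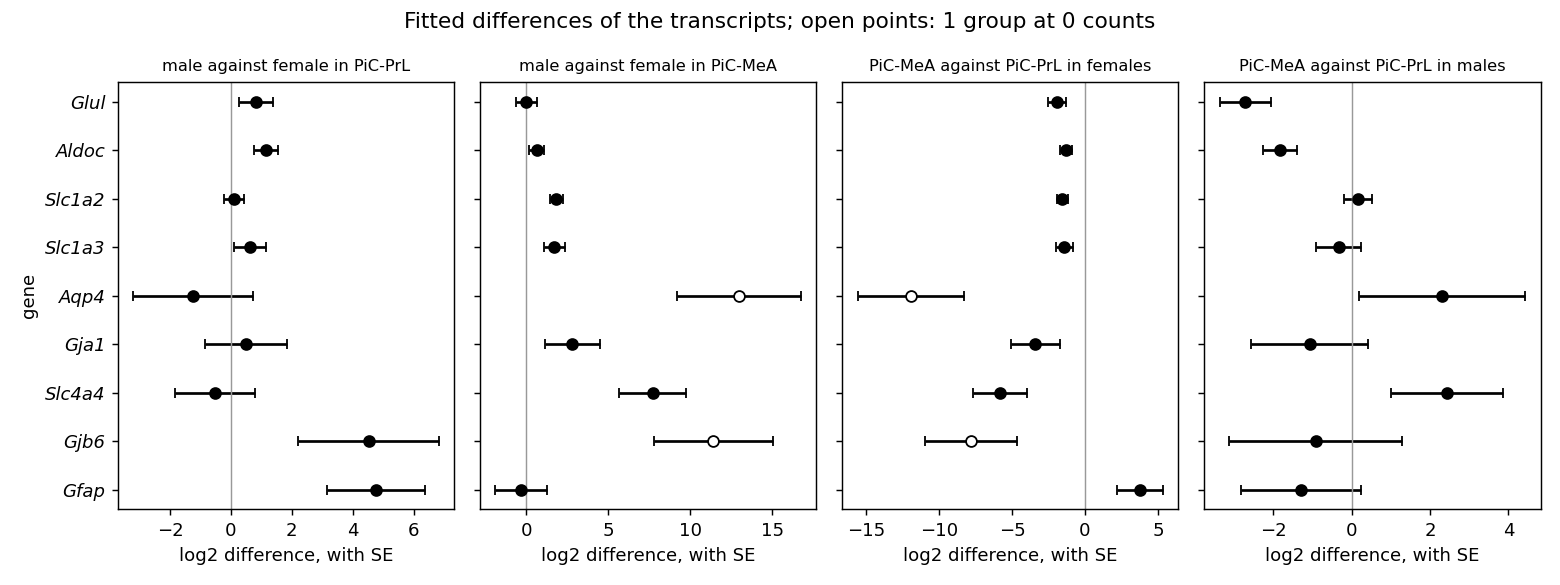
Fitted log2 difference with its SE (x axis, own scale per panel) of each gene (y axis) in the sex comparisons (male minus female) and the projection comparisons (PiC-MeA minus PiC-PrL); open points had 0 counts in a whole group, so their value depends on the prior count of the fit. In females 8 of 9 points lie below 0 and Gfap lies above, at 3.78; in males Glul and Aldoc lie farthest below 0, at -2.72 and -1.83.

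Whether the sex difference itself differed between projections was tested in the same fit, as PiC-MeA minus PiC-PrL. No member passed by edgeR, which called 0 of 14599 genes (0%). The smallest adjusted p, 0.152, was shared by Slc1a2 (log2 1.72 ± 0.50), Slc4a4 (8.23 ± 2.30) and Aqp4, which has a group at 0 counts. Gfap gave -5.07 ± 2.22 (edgeR adjusted p = 0.277), the opposite sign, from higher values in male than in female PiC-PrL tubes. At an unadjusted p under 0.05 there were 3 members higher and 1 lower, against 11.8% and 3.75% of all tested genes. Slc1a2, Aqp4 and Slc4a4 were called by DESeq2 (8.94% of genes) and by limma voom (4.99%), and Aqp4 by edgeR without a filter (0.301%). Fitted values were positive for 6 members and negative for 3, beside 54.8% and 45.2% of all tested genes. The median log2 was 1.72 for the members and 0.31 for all tested genes. This comparison rests in part on the male PiC-MeA tubes, so it cannot be told apart from their larger number of detected genes and Olfr genes.

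A list of 46 further astrocyte genes was followed beside the members. In female PiC-MeA tubes 22 to 27 of them had at least 10 counts, in PiC-PrL tubes 20 to 33 and in male PiC-MeA tubes 41 to 43. Of all genes, too, more had a count in male PiC-MeA tubes, 18964 to 20014 against 12479 to 14908 in the remaining 11. The summed level of the 46 genes was 2808 to 3251 CPM in female and 2902 to 4661 CPM in male PiC-MeA tubes. These groups thus overlapped, unlike the sums of the 9 members. Female PiC-PrL tubes had 3298 to 4742 CPM and male PiC-PrL tubes 3420 to 8319 CPM. The highest by mean CPM, Cst3, Apoe, Sparcl1 and Clu, encode secreted proteins that neurons or microglia also make in part.

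Of the 43 further astrocyte genes tested, none passed in any of the 5 comparisons by edgeR. Between the sexes in PiC-MeA tubes 31 had positive and 12 negative fitted changes (median log2 0.95), with 7 higher and none lower at an unadjusted p under 0.05, beside 10.3% and 2.05% of all tested genes. Between the projections in females 16 were positive and 27 negative (median -0.31), with none higher and 6 lower, beside 5.78% and 5.31%. In male PiC-MeA against male PiC-PrL tubes 27 were positive and 16 negative (median 0.41), with 6 higher and 3 lower, beside 17.3% and 4.89%. Within PiC-PrL the sexes gave 22 positive and 21 negative values (median 0.02), with 1 higher and 5 lower, beside 5.56% and 8.78%.

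Relatives and partners of the members were followed by lists. Of 17 other genes of the glutamate-glutamine cycle 16 were tested and none passed in any comparison. Got1, an aspartate aminotransferase, had means of 535 CPM in female PiC-PrL, 499 in male PiC-PrL, 752 in female PiC-MeA and 338 in male PiC-MeA tubes.

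Of 20 listed genes, other connexins, pannexins and Tjp1, 8 were tested and none passed. The scaffold Tjp1 led them at 62.8 CPM over all libraries, and Gjc3 ran from 0 to 89.2 CPM in PiC-PrL tubes. Dmd, the dystrophin whose complex anchors Aqp4, stood at 415 to 422 CPM in male and 117 to 317 CPM in female PiC-MeA tubes. Of all tested genes 17.4% were apart in that direction, and Dmd was not called (log2 0.89 ± 0.57, edgeR adjusted p = 0.658). Female PiC-PrL tubes had 191 to 580 CPM of Dmd. Dtna, of the same complex, had a log2 of -0.02 ± 0.61 between the sexes in PiC-MeA tubes. Of 5 tested genes of this list 4 were positive and 1 negative there. Aqp1, Aqp2 and Aqp6 were at 0 in all libraries. Of 12 tested relatives of Slc4a4 and carbonic anhydrases none passed, and the neuronal cotransporter Slc4a10 was present in all tubes (mean 182 CPM). Aldoa, the aldolase of most tissues, stood at 1469 CPM per kb over all libraries, above the 368 CPM per kb of Aldoc, with group means of 4069, 5308, 5422 and 2033 CPM in female PiC-PrL, male PiC-PrL, female PiC-MeA and male PiC-MeA tubes.

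Markers of other cell classes moved with the members in part. Endothelial and mural genes, 12 in the list, summed to 0.830 to 2.50 CPM in female and 32.3 to 125 CPM in male PiC-MeA tubes, and to 2.76 to 140.0 CPM in PiC-PrL tubes. All 8 tested were positive between the sexes in PiC-MeA tubes and none was called. Cldn5 and Kcnj8, markers of endothelium and pericytes, were listed at 0 in all 14, as Tubb3 and Nefl were. Oligodendrocyte genes did not follow the same order, at 457 to 2373 CPM in female and 368 to 2141 CPM in male PiC-MeA tubes. Microglia genes summed to 203 to 630.4 CPM and 293 to 467 CPM in these groups, with P2ry12 and Trem2 listed at 0 in all libraries while Ctss, C1qb, Cx3cr1 and Csf1r had counts in every library. Inhibitory neuron genes summed to 216 to 3544 CPM in male PiC-MeA and 157 to 671 CPM in male PiC-PrL tubes, beside the values in females given above. Gap43, a growth cone protein of neurons, was the only listed gene called by edgeR. It was lower in male PiC-MeA than in male PiC-PrL tubes (log2 -1.94 ± 0.34, edgeR adjusted p = 0.014). With detected genes as a covariate edgeR called 0 of all genes in that comparison. The call cannot be told apart from the larger number of detected genes and Olfr genes in male PiC-MeA tubes. What part these classes have in the members' differences was not tested.

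**Figure D4:**
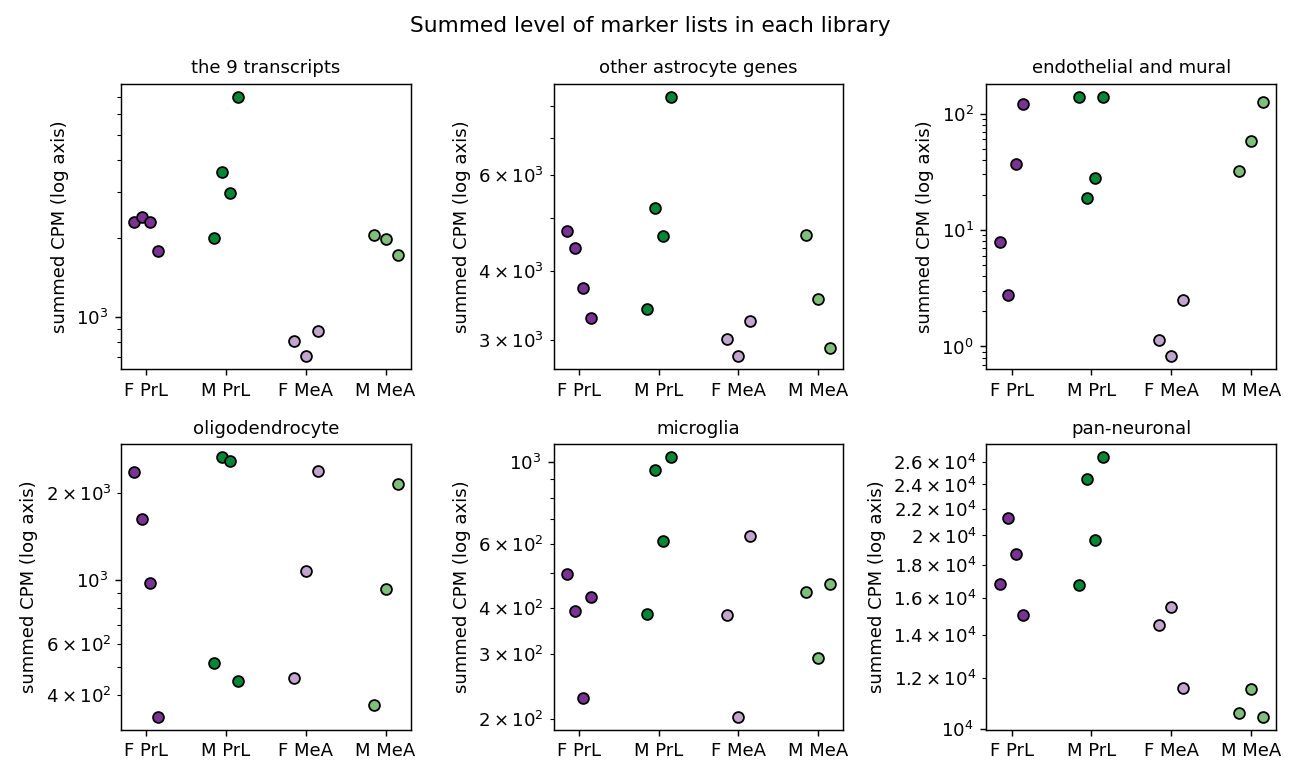
Summed CPM of 6 gene lists (y axis, log scale, own range per panel) in each library, by group (x axis, F female, M male). The 9 transcripts and the endothelial and mural genes are lowest in female PiC-MeA tubes, at 707 to 880.3 CPM and 0.830 to 2.50 CPM, while the oligodendrocyte sums of the 4 groups overlap. For the endothelial and mural genes the margin to female PiC-PrL replicate 2, at 2.76 CPM, is narrow and depends on the TMM scaling.

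The genes whose levels followed the members most closely were found by the Spearman correlation of their CPM with the mean log2(CPM + 1) of the 9, over 14 libraries that share group and depth. Among 12679 protein-coding genes the highest were Cyp2c69 (0.898), Zfp53 (0.871), Muc16 (0.864), Slc28a1 (0.861), Isoc2a (0.838), Gm12248 and mt-Atp8 (0.833 each) and Calcrl, Ccdc88a and Lrp1b (0.83 each). None of the 10 is in the list of further astrocyte genes, whose 43 tested members had a median of 0.257, beside 0.064 for all tested genes. Most of the 10 were low, with mean levels from 2.14 to 16.0 CPM, except Ccdc88a at 107 and Lrp1b at 515 CPM. Cyp2c69, a liver cytochrome, had 0 CPM in female PiC-MeA tubes and 3.05 to 21.5 CPM in male PiC-MeA tubes. In male PiC-PrL tubes it ran from 0 to 34.7 CPM, and in female PiC-PrL tubes it had at most 0.0919 CPM. Muc16 had 4.29 to 27.6 CPM in male PiC-MeA tubes and at most 0.277 CPM in male PiC-PrL, 0.184 in female PiC-PrL and 0.128 in female PiC-MeA tubes. Zfp53, in contrast, had 11.9 to 20.7 CPM in male PiC-MeA tubes and up to 84.8 CPM in male PiC-PrL tubes. The male PiC-MeA tubes are those with the most detected genes. The mean of the 9 had a Spearman correlation of 0.134 with the number of detected genes. What part those tubes have in this ranking was not tested.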

How the data were processed

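The authors deposited raw counts per gene, 1 column per library, and no column belonged to other samples. Per the submitters' processing notes, reads were handled with featureCounts 2.0.1, HISAT2 2.2.1, Trimmomatic 0.39 and SAMtools on the build mm10. The annotation release, strand setting and treatment of shared reads are not stated in the labels. Of 55401 identifiers 55141 matched GENCODE M21 without the version, and merged exon lengths came from it.

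Genes were kept by filterByExpr (minimum count 10, minimum total 15), scaled by TMM (trimmed mean of M-values) and tested by edgeR 4.0.16 (R 4.3.3) in a quasi-likelihood fit, robust to outlying variances, of the 4 group means to all 14 libraries. Adjusted p-values are Benjamini-Hochberg over all tested genes, with a threshold of 0.05, and SE is the log2 change over the root of F. Alternatives used DESeq2 1.42.0, limma 3.58.1, other scaling and filters, a covariate, a replicate block and each library left out. Floors of 3 counts cover counting error only.

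The members and lists were chosen with earlier results of these data known. The text names all members, up to 4 genes per other list by mean CPM and any that passed, and the 10 genes most like the members; the genes at 0 were named after their values were seen. A symbol on 2 rows took the row with more counts. Same-numbered libraries of different groups gave residual correlations of -0.0388 to 0.0407 over 19 pairs, so numbers were not taken to pair tubes. Some genes of the lists are not reported here.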

Additional observations from a re-analysis of the deposited data

Results flagged for a closer look

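Of 20 groups of 4 libraries examined, the 9 genes and their sum in each PiC-PrL group, 4 held a library far from the others. The cut-off flags about 1 group in 20 when values are normally distributed and independent. CPM with many values near 0 is skewed, and the 20 groups share libraries, so the number that chance would flag here is not known. Aqp4 stood at 63.7 CPM in male PiC-PrL replicate 3, with the next library at 0.704 CPM. Gja1 stood at 504 CPM in male PiC-PrL replicate 4, next to 28.3 CPM, and Slc4a4 at 56.6 CPM in the same library, next to 8.51 CPM. Gjb6 stood at 8.33 CPM in female PiC-PrL replicate 3, next to 0.276 CPM. Groups of 3 were not examined.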

How the results depend on the processing

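The number of the 9 members called was 0 in each of the 5 comparisons. By DESeq2 it was 1 for sex in PiC-PrL, 4 for sex in PiC-MeA, 4 for the projections in females, 2 for the projections in males and 3 for the difference between the sex differences. By limma voom it was 0, 4, 0, 3 and 3, and without a filter 0, 1, 1, 2 and 1, in the same order. With 1 library left out it ran from 0 to 2 for the projections in males and was 0 elsewhere. It stayed at 0 with DESeq2 size factors, with detected genes as a covariate, with the replicate block and, added after seeing the data, without the 3 male PiC-MeA libraries in the sex comparison of PiC-PrL and the projections in females. The block turned Gja1 between the sexes in PiC-PrL to -1.77 and, between the projections in males, Gja1 to 1.15 and Gjb6 to 0.15; it moved the count of all genes called in that last comparison from 88 to 38.

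Of 45 fitted changes, with 918 values under alternatives, 10 changed sign under some alternative, and no value of changed sign was called; the cause was not tested. The median log2 of all genes was 0.66 by voom for sex in PiC-MeA and 1.63 for the projections in males, above the 0.12 and 0.16 of the edgeR fit. Between the sexes in PiC-PrL, voom gave -0.0454 for Slc1a2 and -1.27 for Gja1, the covariate -0.31 and -0.30. Libraries left out gave -0.14 to 0.31 for Slc1a2 and -2.52 to 1.54 for Gja1. Glul between the sexes in PiC-MeA was 0.0037 with DESeq2 size factors, 0.0039 by DESeq2, 0.22 by voom, 0.26 with the covariate and -0.52 to 0.46 with libraries left out. Between the projections in males voom gave 0.12 for Slc1a3, 1.53 for Gja1, 3.88 for Gjb6 and 0.11 for Gfap, and the covariate 1.13 for Aldoc, 1.39 for Slc1a3, 3.73 for Gja1 and 17.64 for Gjb6. Libraries left out gave -0.14 to 0.40 for Slc1a2, -0.90 to 0.0315 for Slc1a3 and -1.50 to 1.94 for Gja1. Aldoc in the difference between the sex differences was 2.28 with the covariate. The summed level of the 9 in male PiC-MeA tubes was 2282 CPM of total counts, with no TMM factor, against 1925. Added after seeing the data, the number of members apart and lower between the projections in females was 4, 3 with DESeq2 size factors and 2 per total counts, and that apart and higher between the projections in males was 0 and, per total counts, 1; the other 6 such counts did not change. Depth limits the genes at 0 in a group, whose fitted changes rest on the prior count.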
